A study of Mus musculus with 16 samples.

Results

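The TNF receptor superfamily is a group of membrane receptors through which T cells receive costimulatory or death signals. Of the 55573 genes in the deposited count table, 9 members known on T cells were chosen by name and located through their Ensembl identifiers in the GENCODE mouse annotation. Death-domain receptors are represented by Tnfrsf1a (TNFR1), Tnfrsf25 (DR3) and Fas. The other 6 receptors signal through TRAF adaptors without a death domain, and are Tnfrsf1b (TNFR2), Tnfrsf4 (OX40), Tnfrsf8 (CD30), Tnfrsf9 (4-1BB), Tnfrsf18 (GITR) and Cd27. All 9 passed the filter on low counts that left 13711 genes for testing.

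RNA came from OT1 cells, mouse CD8 T cells on the C57BL/6 background whose transgenic receptor recognises an ovalbumin peptide. Mice with tumours were given Foxp3UP and Mock cells together, and 5 days later the transferred cells were sorted alive from the tumours on CD8, CD45.1 and/or CD90.1, none of which is a member of the superfamily. The groups, with 4 libraries each, were Foxp3UP with its control MockUP, and Foxp3DN with its control MockDN, called the UP arm and the DN arm here. The sources used here do not say how Foxp3 was imposed, what UP and DN stand for, or the tumour, the hosts' age and whether animals were pooled, so the names serve as labels only.

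A death domain is a protein fold that recruits FADD or TRADD. Fas uses FADD to activate caspase-8, while TNFR1 and DR3 bind TRADD and can lead either to NF-kB activation or to cell death. Receptors without the fold recruit TRAF proteins, activate NF-kB and support the survival and expansion of activated T cells. Foxp3 is the factor that defines regulatory T cells, and in mice these are known for high GITR, OX40 and TNFR2 and also express DR3.

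Library totals ranged from 9389477 to 13226590 counts. Foxp3 transcript averaged 23.6 ± 6.82 CPM (counts per 1000000 counts of the library, scaled by TMM) in Foxp3UP and 12.4 ± 1.12 in MockUP (SD, n = 4 each), without overlap. The libraries labelled Foxp3DN held less Foxp3 transcript than their control, 10.3 ± 0.130 CPM (SD, n = 4), against 12.9 ± 1.52 CPM in MockDN (SD, n = 4), also without overlap. On the principal components of all tested genes, MockUP replicate 2 stood apart at -52.8 on the second, where the other 15 libraries lay between -13.4 and 30.1. Summed over 8 CD8 T cell markers, libraries held 6318 to 7503 CPM in Foxp3UP, 4193 to 6530 in MockUP, 5805 to 6773 in Foxp3DN and 5912 to 6294 in MockDN. The B cell markers Ms4a1 and Pax5 and the endothelial marker Cdh5 were at 0 in all 16 libraries, and Cd4 reached at most 0.759 CPM. Other markers on these lists were found in every library, among them Cd79b at up to 6.92 CPM, Pecam1 at up to 68.3 CPM and the CD4 T cell markers Zbtb7b and Cd40lg at up to 12.5 and 23.6 CPM.

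In Foxp3UP cells, transcripts of the TRAF-binding receptors CD30 and OX40 and of the death-domain receptor TNFR1 rose, and the transcript of the death-domain receptor DR3 fell. CD30 was 4.29-fold and OX40 2.08-fold higher than in MockUP, DR3 was 3.99-fold lower, and TNFR1 was 1.34-fold higher. For TNFR1 the Foxp3UP and MockUP libraries overlapped, and its call was lost in several alternative fits given below. The other 5 members, Fas, TNFR2, 4-1BB, GITR and CD27, did not pass this test, which held no term for the replicate number. Genes were called at an adjusted p under 0.05 in edgeR's quasi-likelihood test with Benjamini-Hochberg adjustment over all 13711 genes, which 12.1% of genes reached in this comparison, 6.08% as higher and 5.99% as lower. With the replicate number as a block in the same test, GITR, CD27 and 4-1BB were called higher too (adjusted p = 0.00963, 0.0443 and 0.0499). That fit called 17.6% of all genes. For CD30, OX40 and DR3 the 4 Foxp3UP libraries did not overlap the 4 MockUP libraries, a separation seen for 15.9% of tested genes. In Foxp3DN cells none of the 9 members passed the test, and the 1 gene that did is 0.00729% of those tested. Since these are bulk samples, fewer cells carrying a transcript and less of it per cell cannot be told apart.

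**Figure D1:**
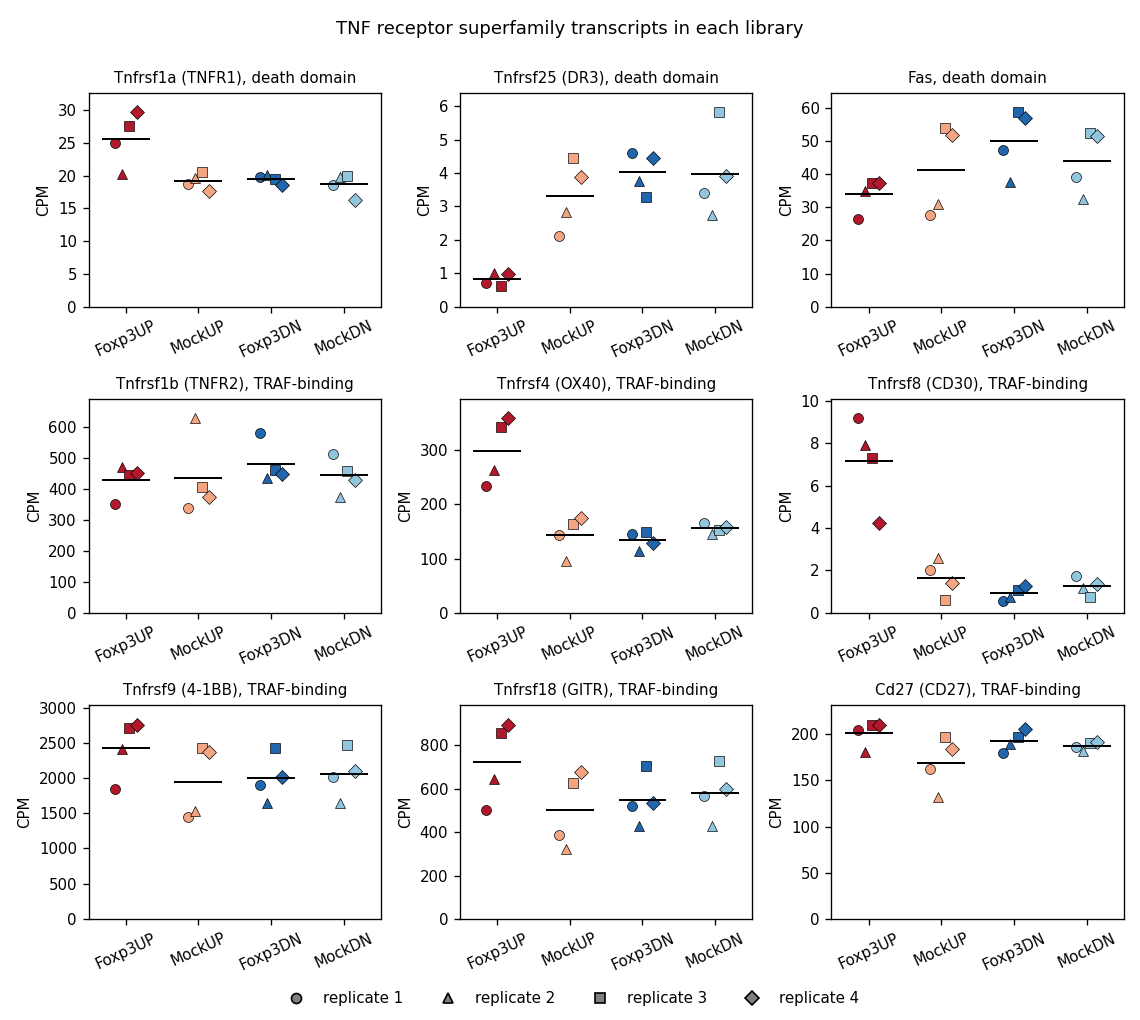
Level of each receptor transcript (CPM, linear axis from 0) in every library; marker shapes give the replicate number, colours the group and bars the mean of 4 libraries. CD30 and OX40 lie higher and DR3 lower in all 4 Foxp3UP libraries than in any MockUP library, while the Foxp3DN and MockDN libraries overlap for every receptor.

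Levels per kilobase, with the deposited exonic length of each gene, were used to compare the receptors with each other. The lengths of the transcripts expressed were not measured, so the order of the receptors and their shares are approximate. In Foxp3UP libraries 4-1BB, a receptor induced by antigen on CD8 T cells, led with 893 ± 154 CPM per kilobase (SD, n = 4), followed by GITR with 476 ± 121 and OX40 with 219 ± 44.6. TNFR2 had 112.5 ± 14.1, CD27 86.5 ± 6.13, Fas 16.5 ± 2.53, TNFR1 9.89 ± 1.57, CD30 2.07 ± 0.606 and DR3 0.360 ± 0.0867 CPM per kilobase. No neighbours in this order overlapped among the Foxp3UP libraries. In MockUP libraries 4-1BB and GITR again led with 714 ± 194 and 331 ± 115 CPM per kilobase (SD, n = 4). TNFR2 with 114 ± 34.0, OX40 with 105 ± 26.0 and CD27 with 72.4 ± 12.2 CPM per kilobase came next, and each overlapped its neighbour. At the low end of MockUP, DR3 with 1.46 ± 0.457 CPM per kilobase lay above CD30 with 0.477 ± 0.243, without overlap, and their order was the opposite of that in Foxp3UP. Foxp3DN and MockDN libraries had the same order of mean levels as MockUP. OX40 overlapped CD27 in Foxp3DN and TNFR2 in MockDN, and no other neighbours overlapped there.

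The share of the summed level per kilobase shows how the receptor repertoire was divided. 4-1BB alone made up 49.3% ± 1.33 of the sum over the 9 members in Foxp3UP and 52.0% ± 1.89 in MockUP (SD, n = 4 each). OX40 made up 12.1% ± 0.611 in Foxp3UP and 7.78% ± 1.45 in MockUP. The 3 death-domain receptors together made up 1.42% to 1.64% of the sum in Foxp3UP libraries and 2.03% to 2.19% in MockUP libraries. This share was 2.20% to 2.58% in Foxp3DN libraries and 1.87% to 2.19% in MockDN libraries. The summed level of the death-domain receptors itself was 26.8 ± 3.39 CPM per kilobase in Foxp3UP and 28.8 ± 7.17 in MockUP. That of the TRAF-binding receptors was 1789 ± 328 in Foxp3UP and 1337 ± 324 in MockUP (SD, n = 4 each), with ranges that overlapped. The sums are dominated by the most abundant member of each class, and no test was run on them.

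DR3, encoded by Tnfrsf25 (ENSMUSG00000024793, chr4:152115934-152120119, plus strand, mm10), is the receptor for TL1A and costimulates T cells through TRADD. Its transcript was at 0.705, 0.998, 0.602 and 0.976 CPM in Foxp3UP replicates 1 to 4, from 6 to 12 counts a library. In MockUP it was at 2.12, 2.85, 4.44 and 3.89 CPM, from 23 to 44 counts. All 4 Foxp3UP libraries lay below all 4 MockUP libraries, and the log2 fold change was -2.0 ± 0.31 (SE, adjusted p = 0.000809). Ordered by fold change, it ranked 13 from the lowest of the 13711 genes. In Foxp3DN and MockDN the levels overlapped. DR3 had 4.60, 3.78, 3.28 and 4.46 CPM in Foxp3DN and 3.41, 2.73, 5.82 and 3.91 CPM in MockDN. The log2 fold change was 0.02 ± 0.25 (SE, adjusted p = 1). Within replicates 1 and 2 the log2 difference in the UP arm was -1.52 and within replicates 3 and 4 it was -2.40, both called in a fit over all libraries, with adjusted p = 0.0253 and 0.00159. Fitted on replicates 1 and 2 alone, the call was lost (log2 fold change -1.53, adjusted p = 0.122).

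TNFR1, encoded by Tnfrsf1a (ENSMUSG00000030341, chr6:125349362-125362484, plus strand, mm10), is the widely expressed receptor for TNF. It had 24.9, 20.3, 27.6 and 29.7 CPM in Foxp3UP and 18.8, 19.6, 20.6 and 17.6 CPM in MockUP. Foxp3UP replicate 2 lay below MockUP replicate 3, so the groups overlapped, although Foxp3UP was higher in 4 of 4 same-numbered pairs. The log2 fold change was 0.42 ± 0.12 (SE, adjusted p = 0.0296). This call was lost with library totals in place of TMM (adjusted p = 0.0536), with no filter (0.119), with the UP libraries fitted alone (0.138), and without Foxp3UP replicate 1, 3 or 4 (0.062, 0.0876 and 0.102) or MockUP replicate 1 or 4 (0.0506 and 0.083). TNFR1 had 19.8, 20.1, 19.6 and 18.6 CPM in Foxp3DN and 18.6, 19.9, 20.0 and 16.3 CPM in MockDN, which overlapped. Within replicates 1 and 2 of the UP arm the log2 difference was 0.23 (adjusted p = 0.324), and within replicates 3 and 4 it was 0.58 (adjusted p = 0.0275).

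Fas (ENSMUSG00000024778, chr19:34290666-34327772, plus strand, mm10) is the receptor for Fas ligand and drives activation-induced death of T cells. Its levels were 26.4, 34.9, 37.5 and 37.3 CPM in Foxp3UP and 27.7, 30.9, 54.1 and 52.0 CPM in MockUP. The groups overlapped and the difference did not pass the test, with a log2 fold change of -0.27 ± 0.22 (SE, adjusted p = 0.459). For Foxp3DN and its control the levels were 47.4, 37.8, 58.8 and 57.0 CPM in Foxp3DN and 39.1, 32.5, 52.5 and 51.6 CPM in MockDN, with a log2 fold change of 0.19 ± 0.22 (SE, adjusted p = 1). The sign in the UP arm depended on the replicates. Within replicates 1 and 2 the log2 difference was 0.07 (adjusted p = 0.812), and within replicates 3 and 4 it was -0.50 (adjusted p = 0.0531). Fitted on replicates 3 and 4 alone it was -0.53 and called lower (adjusted p = 0.000648). The difference between the sets of replicates, -0.57 ± 0.22 (SE), did not itself pass the test (adjusted p = 0.368).

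CD30, encoded by Tnfrsf8 (ENSMUSG00000028602, chr4:145267137-145315164, minus strand, mm10), appears on activated lymphocytes and binds TRAF proteins. It had 9.16, 7.90, 7.32 and 4.23 CPM in Foxp3UP replicates 1 to 4, from 39 to 104 counts a library. In MockUP it had 2.03, 2.56, 0.606 and 1.41 CPM, from 6 to 27 counts. Even the lowest Foxp3UP library lay above every MockUP library, and the log2 fold change was 2.10 ± 0.34 (SE, adjusted p = 0.000977). Ordered by fold change it ranked 25 from the highest of the 13711 genes, and leaving out any 1 library of the arm kept it called, between 1.83 and 2.39 on the log2 scale. Foxp3DN libraries had 0.553, 0.740, 1.09 and 1.26 CPM of CD30, and MockDN libraries 1.75, 1.16, 0.738 and 1.34 CPM. Those libraries overlapped, with a log2 fold change of -0.46 ± 0.42 (SE, adjusted p = 1), and at 6 to 22 counts a library only a large change could have been detected. Within the UP arm the log2 difference was 1.89 in replicates 1 and 2 and 2.53 in replicates 3 and 4, with adjusted p = 0.00739 and 0.00171.

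OX40, encoded by Tnfrsf4 (ENSMUSG00000029075, chr4:156013843-156016612, plus strand, mm10), is a costimulatory receptor that sustains activated T cells. It had 233, 263, 343 and 359 CPM in Foxp3UP and 143, 94.5, 165 and 174 CPM in MockUP. All 4 Foxp3UP libraries lay above all 4 MockUP libraries, with a log2 fold change of 1.06 ± 0.17 (SE, adjusted p = 0.000855). OX40 had 145, 113, 149 and 129 CPM in Foxp3DN and 166, 146, 153 and 158 CPM in MockDN. Every same-numbered pair was lower in Foxp3DN, but the groups overlapped and the log2 fold change of -0.21 ± 0.17 did not pass the test (SE, adjusted p = 1). The UP difference was alike in both sets of replicates, at 1.06 in replicates 1 and 2 and 1.05 in replicates 3 and 4 (adjusted p = 0.00321 and 0.0016). The fit on replicates 1 and 2 alone lost the call (log2 fold change 1.06, adjusted p = 0.0949). MockUP replicate 2 was the lowest of all 16 libraries for OX40, and without it the log2 fold change was 0.89 and still called (adjusted p = 0.000535).

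GITR, encoded by Tnfrsf18 (ENSMUSG00000041954, chr4:156026164-156028895, plus strand, mm10), is a costimulatory receptor abundant on regulatory T cells. It had 503, 644, 857 and 896 CPM in Foxp3UP and 387, 324, 627 and 679 CPM in MockUP. Groups overlapped although each of 4 same-numbered pairs was higher in Foxp3UP, and the log2 fold change of 0.52 ± 0.24 was not called (SE, adjusted p = 0.167). With the replicate number as a block it was called higher at 0.56 (adjusted p = 0.00963). The block nested within each arm, added after the data were seen, gave 0.55 (adjusted p = 0.000815). GITR levels in the DN arm were 522, 431, 704 and 534 CPM in Foxp3DN and 566, 429, 729 and 600 CPM in MockDN. Those values overlapped, with a log2 fold change of -0.09 ± 0.24 (SE, adjusted p = 1). GITR was called higher within replicates 1 and 2 of the UP arm at 0.69 (adjusted p = 0.029), and within replicates 3 and 4 it was 0.42 and not called (adjusted p = 0.16). MockUP replicate 2, the library apart on the second component, had the lowest GITR level of all 16. Without that library the log2 fold change over the UP arm was 0.36 (adjusted p = 0.375). The antisense gene Gm16008 lies on the opposite strand and shares 414 of the 1524 exonic bases of Tnfrsf18, which is 27.2%, and had 1686 to 4126 counts a library. Its log2 fold change in the UP arm was 0.52 ± 0.23 (SE, adjusted p = 0.165), and with the replicate number as a block it was called too (adjusted p = 0.00717). Its CPM was 43.7% to 49.3% of that of Tnfrsf18 over the 16 libraries. No source used here says whether counting used the strand, so reads of the 2 genes cannot be told apart. The levels per kilobase and shares of GITR given above carry the same limit.

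4-1BB, encoded by Tnfrsf9 (ENSMUSG00000028965, chr4:150914562-150946102, plus strand, mm10), is costimulatory on CD8 T cells. It had 1849, 2406, 2712 and 2758 CPM in Foxp3UP and 1440, 1534, 2426 and 2375 CPM in MockUP. Foxp3UP was higher in each of 4 same-numbered pairs, but the groups overlapped and the log2 fold change of 0.32 ± 0.19 was not called (SE, adjusted p = 0.283). With the replicate number as a block it was 0.35 and just called (adjusted p = 0.0499). Nesting the block within each arm, a setting added after the data were seen, called it at 0.35 (adjusted p = 0.00474). Its levels were 1902, 1643, 2431 and 2012 CPM in Foxp3DN and 2017, 1650, 2475 and 2100 CPM in MockDN, with a log2 fold change of -0.05 ± 0.19 (SE, adjusted p = 1). Each same-numbered pair was lower in Foxp3DN, and the groups overlapped. It was called higher within replicates 1 and 2 of the UP arm at 0.52 (adjusted p = 0.0453), and within replicates 3 and 4 it was 0.19 and not called (adjusted p = 0.509).

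CD27, encoded by Cd27 (ENSMUSG00000030336, chr6:125232622-125237010, minus strand, mm10), binds CD70 and marks naive and memory T cells. It had 205, 180, 210 and 210 CPM in Foxp3UP and 162, 132, 197 and 184 CPM in MockUP. The groups overlapped by 1 Foxp3UP library, each same-numbered pair was higher in Foxp3UP, and the log2 fold change of 0.26 ± 0.11 was not called (SE, adjusted p = 0.124). With the replicate number as a block it was called at 0.26 (adjusted p = 0.0443). When the block was nested within each arm, added after the data were seen, it was 0.27 (adjusted p = 0.0102). In the DN arm CD27 had 179, 189, 197 and 206 CPM in Foxp3DN and 187, 182, 190 and 192 CPM in MockDN, which overlapped. Within replicates 1 and 2 of the UP arm CD27 was called higher at 0.39 (adjusted p = 0.0412), and within replicates 3 and 4 it was 0.14 and not called (adjusted p = 0.488). MockUP replicate 2 was the lowest of all 16 libraries for CD27, and without it the log2 fold change was 0.15 (adjusted p = 0.238).

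TNFR2, encoded by Tnfrsf1b (ENSMUSG00000028599, chr4:145213463-145246870, minus strand, mm10), is the TNF receptor without a death domain and is prominent on regulatory T cells. It had 351, 470, 445 and 452 CPM in Foxp3UP and 339, 626, 405 and 372 CPM in MockUP. The groups overlapped, with a log2 fold change of -0.02 ± 0.17 (SE, adjusted p = 0.955). MockUP replicate 2, the library apart on the second component, was the highest of all 16, and without it the log2 fold change was 0.20 (adjusted p = 0.322). In the DN arm TNFR2 had 578, 436, 461 and 446 CPM in Foxp3DN and 512, 374, 457 and 426 CPM in MockDN, and the log2 fold change was 0.12 ± 0.17 (SE, adjusted p = 1). The sign of the UP difference depended on the replicates, at -0.23 within replicates 1 and 2 (adjusted p = 0.532) and 0.21 within replicates 3 and 4 (adjusted p = 0.653).

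**Figure D2:**
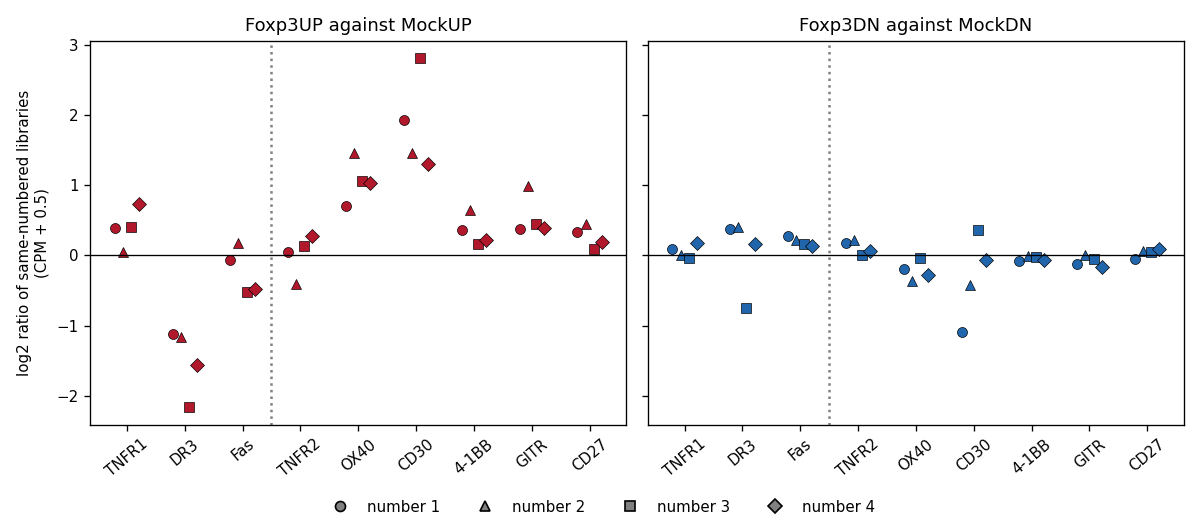
Ratio of same-numbered libraries for each receptor on the scale of log2(CPM + 0.5), Foxp3UP against MockUP on the left and Foxp3DN against MockDN on the right; marker shapes give the replicate number and the dotted line parts death-domain from TRAF-binding receptors. CD30, OX40, GITR, 4-1BB, CD27 and TNFR1 lie above 0 in 4 of 4 UP pairs and DR3 below 0 in 4 of 4, while the DN pairs run from -1.09 to 0.40, both ends set by the low-count members CD30 and DR3.

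By class, 1 of the 3 death-domain receptors rose, 1 fell and 1 was not called in Foxp3UP, and 2 of the 6 TRAF-binding receptors rose and 4 were not called. The median log2 fold change was -0.27 over the death-domain receptors and 0.42 over the TRAF-binding receptors, beside 0.0041 over all genes tested. Between Foxp3DN and MockDN these medians were 0.06 and -0.07, beside -0.00172 over all genes. With the replicate number as a block, 6 members were called higher and 1 lower in Foxp3UP, 7 of 9, where 17.6% of all genes were called, 9.18% higher and 8.38% lower. All members called there other than TNFR1 and DR3 were TRAF-binding, and Fas and TNFR2 remained uncalled. None of the 9 members had an unadjusted p under 0.05 in Foxp3DN against MockDN, and DESeq2 called 0 of them too. Library totals as the scaling called 646 genes higher and 1081 lower in the UP arm, against 833 and 821 with TMM, and among the members it moved only the call of TNFR1.

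**Figure D3:**
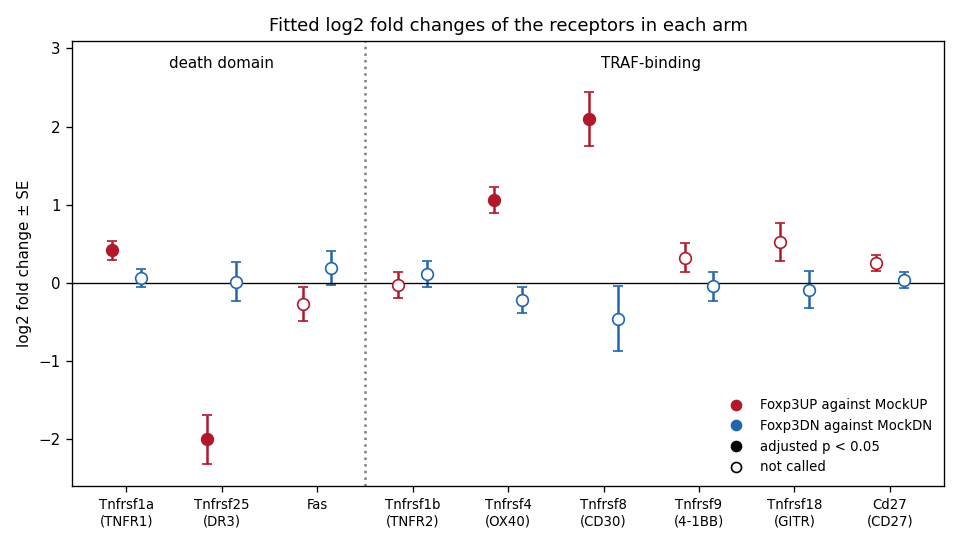
Fitted log2 fold change ± SE of each receptor in the UP arm (red) and the DN arm (blue), with filled points called at an adjusted p under 0.05 and the dotted line parting the classes. CD30 at 2.10 and DR3 at -2.0 are the extremes in Foxp3UP, and no receptor is called in Foxp3DN.

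The difference between the arms was tested directly, as the change from MockUP to Foxp3UP minus that from MockDN to Foxp3DN, for which 1.83% of genes were called. Of the 9 receptors, 3 differed. CD30 differed by 2.56 ± 0.54 on the log2 scale (SE, adjusted p = 0.0233), OX40 by 1.27 ± 0.24 (adjusted p = 0.0113) and DR3 by -2.01 ± 0.40 (adjusted p = 0.0171). The call for CD30 was lost without MockDN replicate 1 (adjusted p = 0.0722) or MockDN replicate 4 (0.0512). Within replicates 1 and 2 the arms differed for CD30 by 3.03 (adjusted p = 0.0338), OX40 by 1.33 (0.0222) and DR3 by -1.96, the last not called (0.0833). Within replicates 3 and 4 they differed for OX40 by 1.21 (adjusted p = 0.019) and DR3 by -2.05 (0.0441), and for CD30 the difference of 2.33 was not called (0.0819). TNFR1, with a difference of 0.36 ± 0.17 (adjusted p = 0.317), was not shown to differ between the arms, nor were GITR at 0.61 ± 0.33 (adjusted p = 0.403), Fas at -0.47 ± 0.31 (0.499), 4-1BB at 0.37 ± 0.26 (0.544), CD27 at 0.22 ± 0.15 (0.517) and TNFR2 at -0.14 ± 0.24 (0.835). Nesting the replicate block within each arm, a setting added after the data were seen, called 5 of 9 members where 12.7% of genes were called, adding GITR (adjusted p = 0.00663) and 4-1BB (0.0285). The controls themselves, MockUP against MockDN, differed for none of the 9 members, where 0.00729% of genes were called. Their log2 fold changes ran from -0.26 for DR3 to 0.41 for CD30, none with an unadjusted p under 0.05, and DESeq2 called 0 members.

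Of the 9 receptor genes 6 lie on chromosome 4, 2 on chromosome 6 and Fas on chromosome 19, and 2 pairs are direct neighbours among coding genes. OX40 and GITR genes are 9.55 kilobases apart with 0 coding genes between them, and the genes of TNFR2 and CD30 are 20.27 kilobases apart, also with 0 between. The other gaps on chromosome 4 run from 1169.83 to 5599.4 kilobases, with 12 to 73 coding genes between. In the fit without the block OX40 was called and GITR was not, while with the replicate number as a block both were called higher (adjusted p = 6.89e-05 for OX40 and 0.00963 for GITR). CD30 was called while TNFR2 had a log2 fold change of -0.02. Whether the members of a pair of neighbours differed from each other was not tested.

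Promoter windows of 250 bases before to 50 after the start were matched for all 9 members in RefSeq (GRCm38.p6), as 11 windows. Those of the 3 receptors that differed between the arms are shown. Motifs were chosen because the groups are named after a forkhead factor, and NF-kB, AP-1 and RUNX proteins act with it in T cells. Capitals mark the motif matches named after the sequences, and each runs 5′ to 3′ on the gene's strand.
Tnfrsf8, chr4:145315115-145315414, minus strand: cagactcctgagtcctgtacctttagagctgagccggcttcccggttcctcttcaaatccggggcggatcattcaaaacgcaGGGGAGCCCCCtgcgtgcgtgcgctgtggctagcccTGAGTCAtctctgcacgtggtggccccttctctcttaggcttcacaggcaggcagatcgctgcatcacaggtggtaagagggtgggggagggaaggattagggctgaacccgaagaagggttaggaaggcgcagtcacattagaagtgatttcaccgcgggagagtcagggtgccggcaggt
Tnfrsf4, chr4:156013445-156013744, plus strand: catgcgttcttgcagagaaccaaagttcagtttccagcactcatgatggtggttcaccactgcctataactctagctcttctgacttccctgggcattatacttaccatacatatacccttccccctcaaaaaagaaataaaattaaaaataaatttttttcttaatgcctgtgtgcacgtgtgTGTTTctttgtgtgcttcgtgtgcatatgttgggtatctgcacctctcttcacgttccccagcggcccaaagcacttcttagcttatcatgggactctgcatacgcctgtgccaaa
Tnfrsf25, chr4:152115684-152115983, plus strand: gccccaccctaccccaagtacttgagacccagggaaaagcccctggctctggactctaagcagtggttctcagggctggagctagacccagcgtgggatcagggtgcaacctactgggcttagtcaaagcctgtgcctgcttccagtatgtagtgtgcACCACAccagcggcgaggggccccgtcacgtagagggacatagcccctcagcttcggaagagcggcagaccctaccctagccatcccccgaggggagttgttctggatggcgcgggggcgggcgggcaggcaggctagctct
The Tnfrsf8 window held the AP-1 motif TGANTCA at -132 to -126, with the start counted as 0, and a pair of overlapping matches to the NF-kB consensus between -168 and -158. The Tnfrsf4 window, whose RefSeq start lies 148 bases before that of the deposited gene, held the short forkhead core TGTTT at -66 to -62. Of the pair of Tnfrsf25 windows, the one at the deposited start is shown, and it held ACCACA, the RUNX motif TGTGGT on the other strand, at -92 to -87. The other Tnfrsf25 window held a pair of matches to the NF-kB consensus, at -28 to -19 and 36 to 45.

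Both strands of every window were searched for each motif. AP-1 matches lay in 3 of the 11 member windows and in 7.79% of the 32544 mouse windows of the same length. The NF-kB consensus lay in 3 of 11 and 8.49%, and TGTGGT in 2 of 11 and 16.7%. The core TGTTT lay in 6 of 11 and 50.5%. The longer forkhead motif TGTTTAC, which contains the core, lay in 0 of 11 and 3.66%. Such matches are descriptions of letters in these windows, and binding was not measured.

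Among the other genes of these pathways, the ligands of CD30 and OX40 fell where their receptors rose. Of 10 listed ligand genes 8 were measured, of which 1 rose, 2 fell and 5 were not called in Foxp3UP, with a median log2 fold change of -0.15. Over all genes tested, 6.08% rose and 5.99% fell. Tnfsf8, the CD30 ligand, averaged 18.3 ± 7.25 CPM in Foxp3UP and 70.1 ± 27.3 in MockUP (SD, n = 4 each), a log2 fold change of -1.94 ± 0.35 (SE, adjusted p = 0.00265). Tnfsf4, the OX40 ligand, averaged 2.33 ± 0.966 CPM in Foxp3UP and 4.61 ± 1.74 in MockUP, a log2 fold change of -0.99 ± 0.31 (SE, adjusted p = 0.0477). Its call was lost in 6 of the 8 fits that left out a library, with adjusted p up to 0.125. Ltb, whose product joins lymphotoxin alpha in membrane trimers, averaged 550 ± 103 CPM in Foxp3UP and 320 ± 65.6 in MockUP, a log2 fold change of 0.78 ± 0.15 (SE, adjusted p = 0.00228). For Tnfsf8 the arms also differed, by -1.99 ± 0.48 (SE, adjusted p = 0.0483). They were not shown to differ for Tnfsf4, at -0.65 ± 0.42 (SE, adjusted p = 0.495). Nor were they for Ltb, at 0.725 ± 0.20 (SE, adjusted p = 0.0764), which the replicate block called (0.0189). The GITR ligand gene Tnfsf18 and the DR3 ligand gene Tnfsf15 reached at most 0 and 2 counts and were not tested.

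Of 19 other receptors of the superfamily listed, 11 were measured, of which 2 rose, 1 fell and 8 were not called, with a median log2 fold change of -0.08. The shares over all genes tested were 6.08% higher and 5.99% lower. Tnfrsf13b, which encodes the BAFF and APRIL receptor TACI, averaged 32.9 ± 3.12 CPM in Foxp3UP and 19.1 ± 1.94 in MockUP (SD, n = 4 each), a log2 fold change of 0.78 ± 0.11 (SE, adjusted p = 0.000454). Tnfrsf21, which encodes the death-domain receptor DR6, averaged 5.22 ± 0.354 CPM in Foxp3UP and 10.6 ± 1.25 in MockUP, a log2 fold change of -1.02 ± 0.13 (SE, adjusted p = 0.00014). Tnfrsf23, a mouse decoy receptor for TRAIL with close paralogs that could share its reads, had 5.40 ± 0.134 CPM in Foxp3UP and 3.17 ± 0.297 in MockUP, a log2 fold change of 0.77 ± 0.19 (SE, adjusted p = 0.0138). The arms differed for Tnfrsf13b by 0.94 ± 0.16 (SE, adjusted p = 0.00629) and for Tnfrsf21 by -0.97 ± 0.18 (SE, adjusted p = 0.0115). For Tnfrsf23 the difference of 0.995 ± 0.265 was not called (SE, adjusted p = 0.0642), though the replicate block called it (0.0265).

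Downstream of the receptors, 5 of 17 death-domain signalling genes rose in Foxp3UP, 0 fell and 12 were not called, with a median log2 fold change of 0.35 beside 0.0041 over all genes. Among all genes tested, 6.08% rose and 5.99% fell. Casp8, the initiator caspase that binds FADD, averaged 202 ± 5.64 CPM in Foxp3UP and 152 ± 18.0 in MockUP (SD, n = 4 each), a log2 fold change of 0.41 ± 0.09 (SE, adjusted p = 0.0081). The caspase gene Casp6 rose by 0.73 ± 0.17 (SE, adjusted p = 0.00987). Ripk3, a kinase of necroptosis, and Cradd, an adaptor with a death domain named after its value was seen, rose by 0.50 ± 0.14 and 0.62 ± 0.18 (SE, adjusted p = 0.0297 and 0.0304). With only the UP libraries in the fit, 0 of the 17 were called, and Ripk3 and Cradd lost the call in 4 and 7 of the 8 fits that left out a library. None of the 17 differed between the arms in edgeR's test, although 5 had an unadjusted p under 0.05, and DESeq2 and the replicate block each called 2.

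Of 28 genes of TRAF adaptors and NF-kB, 0 rose, 2 fell and 26 were not called, with a median log2 fold change of -0.11. That count of 2 is close to the share of all genes tested that fell, 5.99%, where 6.08% rose. Traf6, an adaptor of Toll-like receptors and of some TNF receptors, averaged 75.4 ± 1.79 CPM in Foxp3UP and 103 ± 19.8 in MockUP (SD, n = 4 each), a log2 fold change of -0.45 ± 0.13 (SE, adjusted p = 0.0305). Rel, the NF-kB subunit c-Rel, averaged 287 ± 64.7 CPM in Foxp3UP and 451 ± 130 in MockUP, a log2 fold change of -0.65 ± 0.20 (SE, adjusted p = 0.0462). Both calls were lost with the UP libraries alone (adjusted p = 0.0737 for Traf6 and 0.126 for Rel), and in 5 and 7 of the 8 fits that left out a library. Neither was shown to differ between the arms, at -0.44 ± 0.18 for Traf6 and -0.65 ± 0.29 for Rel (SE, adjusted p = 0.234 and 0.275). With the replicate number as a block 4 of the 28 were lower, where 8.38% of all genes were, and with the block nested in the arm 11 were, where 12% of all genes were. No gene of these 4 lists was called in Foxp3DN against MockDN, by edgeR's test with 0.00729% of all genes called, 0 of the 64 tested had an unadjusted p under 0.05, and DESeq2 called 0.

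**Figure D4:**
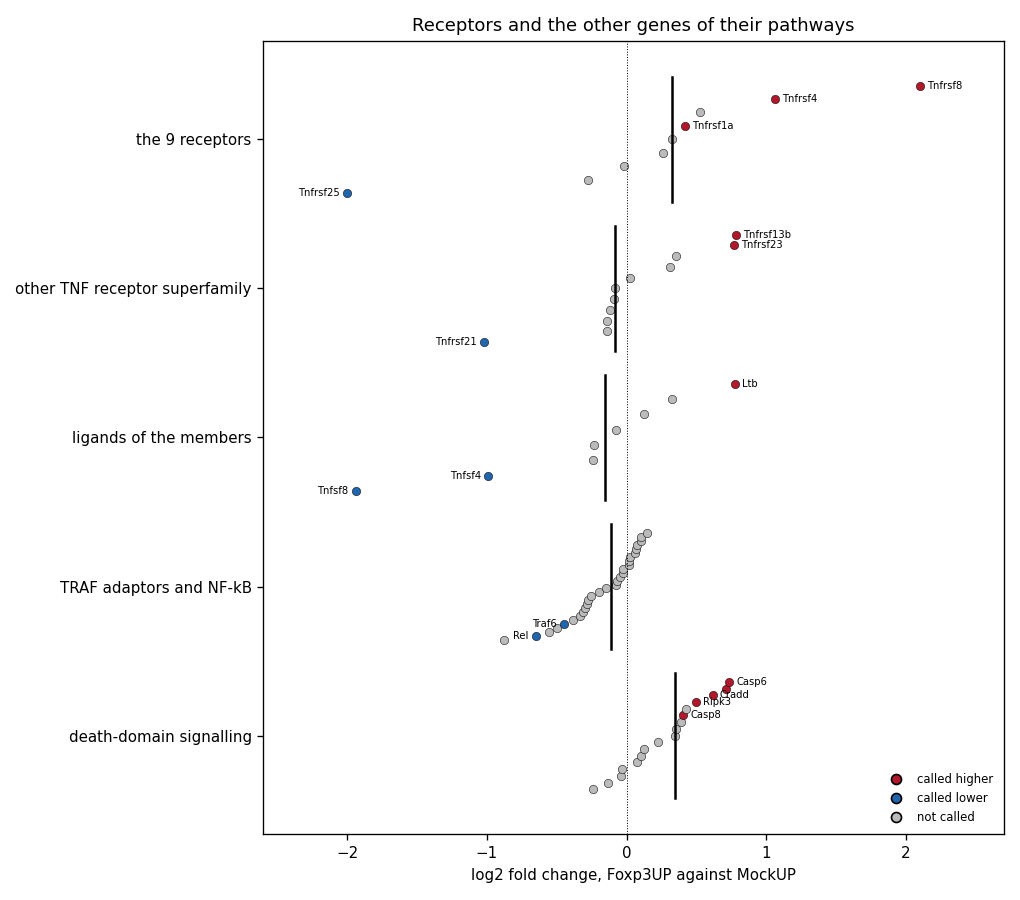
Log2 fold change of each measured gene in Foxp3UP against MockUP for the 9 receptors and the 4 lists; red points were called higher, blue points lower and grey points not called, labels mark genes named in the text, and black bars are medians. The median of death-domain signalling genes is 0.35, and those of the other 3 lists lie between -0.15 and -0.08.

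Transcripts of other cells were low but moved in places with the UP comparison. Myeloid markers without Ly6c2, which CD8 T cells also express, summed to 133 to 161 CPM in Foxp3UP and 72.0 to 125 CPM in MockUP. Of the 9 myeloid markers tested, 2 were called higher and 0 lower, where 6.08% of all genes rose and 5.99% fell. These were Cd68, by 0.86 ± 0.16 (SE, adjusted p = 0.00207), and Ly6c2, by 0.77 ± 0.19 (SE, adjusted p = 0.0134). Csf1r, with the only negative log2 fold change among the tested myeloid markers, had 5.40 to 6.72 CPM in Foxp3UP and 6.36 to 8.83 CPM in MockUP. Those ranges overlapped, and Csf1r was not called at -0.30 ± 0.16 (SE, adjusted p = 0.254). Of the 5 dendritic cell markers tested H2-Ab1 rose by 0.82 ± 0.22 (SE, adjusted p = 0.0244) and Itgax, also found on activated CD8 T cells, fell by 1.45 (adjusted p = 0.000473), while the summed level of all 7 listed was 127.8 to 149 CPM in Foxp3UP and 124.8 to 138.9 CPM in MockUP. Cd40lg, the CD40 ligand gene listed as a CD4 T cell marker, had 4.01 to 8.19 CPM in Foxp3UP and 10.9 to 20.8 CPM in MockUP and was called lower at -1.23 ± 0.21 (SE, adjusted p = 0.0014), and the other marker of that list tested, Zbtb7b, was not called at 0.60 ± 0.20 (SE, adjusted p = 0.0595). The 3 CD4 T cell markers summed to 16.1 to 20.6 CPM in Foxp3UP and 17.4 to 27.8 CPM in MockUP. The 5 B cell markers summed to 4.57 to 7.92 CPM in Foxp3UP and 3.80 to 5.84 CPM in MockUP, with 0 of 2 tested called. The melanocytic and epithelial markers summed to 70.2 to 160.0 CPM in Foxp3UP and 71.6 to 103.6 CPM in MockUP, with 0 of 7 called. The part of any of these cells in the receptor results was not tested.

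The genes whose pattern over the 16 libraries was most like that of each called receptor are given as a description, by Pearson's r of log2 CPM, where all pairs share the same libraries and the group differences. Closest to DR3 were Utp4 and Cx3cr1, each at 0.953, and Id3 at 0.948. Cx3cr1 encodes the fractalkine receptor of effector CD8 T cells and Id3 an inhibitor of E proteins. OX40 was most like Tesc at 0.966, Izumo1r at 0.957 and Pld3 at 0.957, where Izumo1r encodes the folate receptor 4 found on mouse regulatory T cells. CD30 was like Tctn3 at 0.934 and Trpm4 at 0.926. TNFR1 was most like Abhd16a at 0.952, Il27ra, a subunit of the receptor for interleukin 27, at 0.931, and Abcd4 at 0.914. Within groups, after each group's mean was taken off, the same r values were between 0.584 and 0.747 for DR3, and 0.83 and 0.472 for Tctn3 and Trpm4 with CD30.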

How the data were processed

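One table of unnormalised gene-level read counts for the 16 libraries was deposited, with coordinates and exonic lengths per the file headers. Per the submitters' processing notes, STAR 2.6.1 and Subread 1.6.3 were used with mm10, and no source used here states the counting options, the use of strand or the annotation release. GENCODE release M21 gave the symbols: of 55573 identifiers 55480 were found there, 55304 with the same start and end. Coordinates count from 1.

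Genes were filtered with filterByExpr (minimum count 10) and scaled by TMM. The main test was the quasi-likelihood F test of edgeR 4.0.16 (R 4.3.3), two-sided, with robust dispersion estimated from the 16 libraries together and 1 term per group. An adjusted p (Benjamini-Hochberg) under 0.05 was a call, and the SE is the size of the log2 fold change divided by the square root of F. The steps were tested on simulated counts. Nothing shows that replicates came from separate animals, so p-values measure the spread between these libraries.

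The members and gene lists were chosen with earlier results of these data known. All members are named, with up to 4 called genes of each list and the 3 genes most like each called member; 2 genes these rules name are not reported here. To check whether replicate numbers pair libraries, deviations from the group means were correlated within an arm. Same-numbered pairs gave 0.63, 0.213, 0.297 and 0.398 for UP, and 0.364, 0.582, 0.545 and 0.298 for DN. Other-numbered pairs ran from -0.454 to 0.364 for UP and from -0.516 to 0.237 for DN. Their positive values all joined libraries of the same set, replicates 1 and 2 or replicates 3 and 4. In UP, Foxp3UP replicate 4 with MockUP replicate 3 (0.364) lay above the same-numbered pair of replicate 3 (0.297). The numbers were taken as pairs on this ground, which does not show that a pair shares an animal, and a blocked fit stands beside results it changes. Values within replicates 1 and 2 and within replicates 3 and 4 are given because the sample numbers in the titles separate these sets. Alternatives were RLE factors, library totals, no filter, DESeq2 1.42.0, the compared libraries alone, the block, each set of replicates and leaving out each library. Added after the data were seen were the block nested in the arm and contrasts within sets from 1 fit. The block that is not nested also joins same numbers across the arms, which the correlations within an arm did not check. Protein sequences were not used here.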

Additional observations from a re-analysis of the deposited data

Results flagged for a closer look

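For 3 receptors the log2 fold change of the Foxp3 group against its Mock control differed between the UP and DN arms, by the test of the difference itself. For Tnfrsf8 (CD30) it was 2.56 log2 units larger in the UP arm, where all 4 same-numbered pairs were higher, against 1 of 4 pairs in the DN arm. For Tnfrsf4 (OX40) the difference was 1.27, with 4 of 4 pairs higher in the UP arm and 0 of 4 in the DN arm. For Tnfrsf25 (DR3) it was -2.01, with 0 of 4 pairs higher in the UP arm and 3 of 4 in the DN arm. Among the 36 sets of 4 libraries formed by 9 receptors and 4 groups, 0 held a library beyond the critical value of Dixon's test, which chance alone exceeds in about 1 of 20 sets.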

How the results depend on the processing

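In Foxp3UP against MockUP, CD30, OX40 and DR3 kept their direction in all 19 alternatives; the fit on replicates 1 and 2 alone lost the calls of OX40 and DR3, and the call of TNFR1 was the least stable, as given above. DR3 (6 to 71 counts) and CD30 (6 to 104 counts) rest on few reads a library, which limits the precision of their changes.

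The number of genes called in Foxp3UP against MockUP, 1654, was 31 with replicates 1 and 2 only, 3025 with replicates 3 and 4 only, 658 with only the libraries compared and 3475 with the replicate block within the arm. It was 2408 with the replicate block over all libraries, and 1064 to 1978 without 1 library. Of the 9 members, 4 in the main test, 7 were called with either block, 1 with replicates 1 and 2 only, and 3 to 4 without 1 library. In Foxp3DN against MockDN, 0 genes were called with replicates 1 and 2 only and 3 with replicates 3 and 4 only, against 1. For the difference of the arms, 251 genes became 811 with the replicate block, 1739 with the block within the arm, 2 with replicates 1 and 2 only, 70 with these replicates in a fit over all libraries, 1688 with replicates 3 and 4 only, 666 with DESeq2 and 99 to 518 without 1 library. The 3 members called there became 0 with replicates 1 and 2 only, 5 with the block within the arm and 2 to 3 without 1 library. For MockUP against MockDN, 1 gene became 2 with no filter, 2 within replicates 1 and 2, 35 with replicates 3 and 4 only, 10 with DESeq2 and 1 to 2 without 1 library. The cause of these changes was not tested, and fits on a set of replicates also hold fewer libraries. The replicate block changed no other call of a member than those given above, and the block within the arm could not be fitted for MockUP against MockDN, where it coincides with the arms.

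The signs that turned belonged to members not called in the main test, and none was called after turning. In Foxp3UP against MockUP, Fas was 0.063 with replicates 1 and 2 only and 0.066 in the fit over all libraries. Tnfrsf1b was 0.19 with replicates 3 and 4 only, 0.21 in the fit over all libraries, 0.012 with the block within the arm and -0.12 to 0.20 without 1 library. In Foxp3DN against MockDN, replicates 3 and 4 gave -0.35 for Tnfrsf25 in both fits, and 0.19 alone and 0.20 in the fit over all libraries for Tnfrsf8. Without 1 library, Tnfrsf1a ran from -0.0054 to 0.091, Tnfrsf25 from -0.13 to 0.26, Tnfrsf9 from -0.16 to 0.052 and Tnfrsf18 from -0.23 to 0.040. The difference of the arms for Tnfrsf1b was 0.15 with replicates 3 and 4 only, 0.17 in the fit over all libraries, and -0.24 to 0.089 without 1 library. In MockUP against MockDN, replicates 3 and 4 alone and in the fit over all libraries gave 0.022 and 0.027 for Fas, 0.12 and 0.12 for Tnfrsf4, -0.041 and -0.036 for Tnfrsf8, and 0.064 and 0.070 for Tnfrsf9. Replicates 1 and 2 gave -0.0029 for Tnfrsf1a alone, and 0.12 in both fits for Tnfrsf1b. Without 1 library, Tnfrsf1a ran from -0.035 to 0.067, Fas from -0.26 to 0.041, Tnfrsf1b from -0.26 to 0.068, Tnfrsf4 from -0.22 to 0.034 and Tnfrsf9 from -0.22 to 0.021.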

Other observations

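Receptor levels also differed between the sets of replicates, a pattern noticed after the values were seen and not tested. Fas, 4-1BB, GITR and CD27 were higher in both replicates 3 and 4 than in both replicates 1 and 2 in each of the 4 groups. The first principal component of all tested genes, with 34.3% of the variance, parted these sets in each of the 4 groups too. The pattern is thus not particular to these receptors, and the share of all genes that part this way was not counted. For Fas the mean was 37.4 CPM in replicates 3 and 4 and 30.7 CPM in replicates 1 and 2 of Foxp3UP, and 53.1 and 29.3 CPM in MockUP. In the DN arm the Fas means were 57.9 and 42.6 CPM in Foxp3DN and 52.1 and 35.8 CPM in MockDN, in the same order of sets. For GITR they were 876 and 573.5 CPM in Foxp3UP and 653 and 355.5 CPM in MockUP. TNFR2 showed no such separation of the sets in any of the 4 groups. DR3 was higher in replicates 3 and 4 in both Mock groups, with means of 4.17 and 2.48 CPM in MockUP and 4.87 and 3.07 CPM in MockDN, and the sets overlapped in both Foxp3 groups.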
